A study of Mus musculus with 120 samples.

Results

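Tymp and Sco2 are neighbouring genes on mouse chromosome 15 that were selected on their fitted daily rhythm in liver RNA, with high levels around the end of the night. They are 2 of the 12252 genes in the table of the series, and all of their gene and transcript values were used. Their rhythm in WT liver is therefore the property that chose them. It is described below with standard errors and without a test, and the tests concern genotype, cell compartment, and the differences between mice sampled at the same time.

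The liver of each mouse was separated into nuclei and cytoplasm by centrifugation through sucrose, and RNA was sequenced from both fractions and from unfractionated tissue. Nuclear and cytoplasmic RNA were each sequenced as ribosome-depleted total RNA (NT and CT) and as poly(A) RNA (NA and CA), and unfractionated liver as total RNA (UT). Counts of pre-mRNA, with introns, carry a further I, and counts of mRNA, exons only, a further E, so that NAE is nuclear poly(A) mRNA and NTI is nuclear total pre-mRNA. Livers were taken every 4 h at ZT0, ZT4, ZT8, ZT12, ZT16 and ZT20, where ZT0 is lights-on and ZT12 lights-off, from 2 animals per time and genotype, which gave 120 libraries. WT animals were 12 male C57BL/6 mice of 8 to 12 weeks. CryKO animals are labelled Cry1-/- Cry2-/-, that is without working copies of both cryptochrome genes, and their sex and age are not given in the sources used here. Both genotypes could eat only in the dark phase, a schedule that began 3 days before sampling in WT.

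Tymp encodes thymidine phosphorylase, which splits thymidine into thymine and a sugar phosphate; its loss in humans raises thymidine and damages mitochondrial DNA. Sco2 encodes a copper chaperone of the mitochondrial inner membrane that helps to load copper into cytochrome c oxidase, the last enzyme of the respiratory chain. Cry1 and Cry2 encode the cryptochromes, repressors of the clock activators CLOCK and BMAL1, which bind E-boxes such as CACGTG. Without both cryptochromes the molecular clock of the liver does not cycle normally.

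Both genes lie on the minus strand and overlap. In the annotation of GRCm38, the only Tymp transcript, Tymp-201, spans chr15:89371931-89377039 with 11 exons and 2037 transcript bases. Sco2-201, the Sco2 transcript in the table, spans chr15:89371637-89373818 with 3 exons and 1145 bases, and begins 3221 bases downstream of the start of Tymp-201. The Sco2 gene thus starts inside Tymp and ends beyond it. The transcripts share 851 bases, which are 74.3% of Sco2-201 and 41.8% of Tymp-201. No base codes in both annotations. Of the 765 coding bases of Sco2, 519 lie in the noncoding part of the last exon of Tymp-201. All 1037 intron bases of Sco2-201 are also introns of Tymp-201, and its pre-mRNA has few bases that Tymp pre-mRNA lacks. Only the 294 bases at chr15:89371637-89371930 belong to Sco2-201 alone, so a read from the shared exons was divided between the genes by the estimate of the quantifier, and how it was divided was not tested. Sco2 pre-mRNA was listed at 0 in every library except 1, and no Sco2 pre-mRNA is described here. Reads from unspliced Sco2 RNA could thus have been counted as Tymp pre-mRNA. All values named Tymp pre-mRNA below may hold such reads, and their part was not tested.

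**Figure D1:**
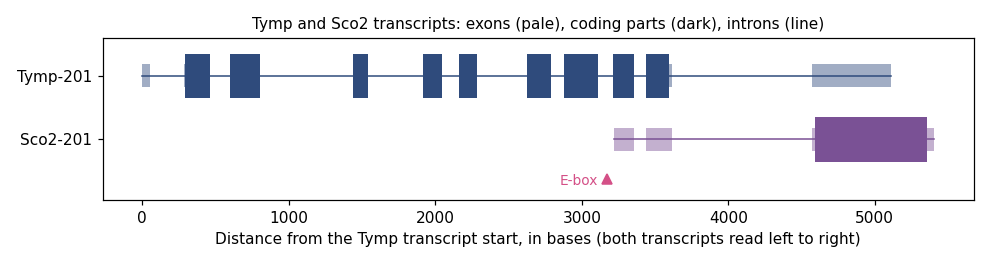
Exons of Tymp-201 and Sco2-201 drawn to scale against the distance in bases from the start of Tymp-201, with coding parts as tall boxes and noncoding parts as low boxes; the triangle marks the E-box described with the upstream sequences. Sco2-201 starts 3221 bases into Tymp-201, and 851 of its 1145 transcript bases are also Tymp-201 exon.

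The sequences before the 2 starts are shown because both genes are described with the cryptochromes absent and present, and the clock acts on promoters. They come from RefSeq on GRCm38.p6, 5′ to 3′ on the minus strand. The 250 bases before the RefSeq start of Tymp are chr15:89377037-89377286. The 250 bases before the RefSeq start of Sco2, chr15:89373892-89374141, lie wholly inside Tymp-201, and 210 of them are coding sequence of Tymp.
Tymp upstream: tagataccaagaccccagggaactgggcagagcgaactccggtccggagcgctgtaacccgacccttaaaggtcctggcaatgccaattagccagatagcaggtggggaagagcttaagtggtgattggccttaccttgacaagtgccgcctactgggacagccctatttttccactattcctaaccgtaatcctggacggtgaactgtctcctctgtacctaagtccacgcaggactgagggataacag
Sco2 upstream: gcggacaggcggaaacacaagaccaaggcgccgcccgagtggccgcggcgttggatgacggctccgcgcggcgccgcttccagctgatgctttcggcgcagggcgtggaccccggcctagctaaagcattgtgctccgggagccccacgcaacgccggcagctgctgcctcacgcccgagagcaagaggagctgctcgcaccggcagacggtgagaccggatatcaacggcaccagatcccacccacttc

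The windows from 250 bases before to 50 after each RefSeq start were searched on both strands for the E-box CACGTG, for the D-boxes TTATGTAA and TTACGTAA, and for the nuclear receptor motif AGGTCA. The E-box was present in the Sco2 window and not in the Tymp window, and 7.15% of the 32851 windows of this length held it. The other motifs were in neither window, against 0.94%, 0.12% and 16.26% of all windows. The E-box, in capitals below, lies at chr15:89373861-89373866, 25 bases downstream of the RefSeq start of Sco2 and 48 bases upstream of the start of Sco2-201. It is in intron 8 of Tymp-201, 3173 bases downstream of the start of Tymp-201.
Sco2 E-box: tcctggtcctggCACGTGcctccagtaggt
The next stretch, chr15:89371916-89371945, is shown because it is the border past which only Sco2-201 is annotated. Capitals mark the 15 bases beyond the end of Tymp-201.
End of Tymp-201: tatgtgcaagaattcCACCCAAGACTGTTA
The RefSeq models of the genes end 1 base apart, so this border depends on the annotation.

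Libraries held 7070209 to 62480068 estimated counts, with the fewest in CT (7070209 to 23326018) and the most in NA (43399632 to 62480068). Levels below are CPM, the counts of a gene divided by the total of its library and multiplied by 1000000, with totals scaled by TMM on the mRNA counts of each RNA population. Cry1 and Cry2 transcripts were still present in CryKO liver. In UTE the median of Cry1 was 6.65 CPM in CryKO and 16.1 in WT, and that of Cry2 was 12.5 and 34.3, while Cry1 pre-mRNA in NTI was 173 in CryKO and 31.1 in WT. Summed hepatocyte markers in UTE were 25920 to 79832 CPM in WT and 55756 to 89222 in CryKO, and endothelial markers 163 to 282 and 267 to 339. The part of cell composition in the genotype results was not tested, and in tissue fewer cells of a type and less RNA per cell cannot be told apart. The cytoplasmic libraries of WT ZT0 replicate 2 stood apart from the other libraries of that mouse: Nr1d1, a clock repressor with a daytime peak, was at 61.6 CPM in CTE and 25.5 in CAE there, against 2.25 and 0.69 in replicate 1, but at 2.02 and 5.05 in UTE. Values without this mouse are given below for the cytoplasmic curves, the cytoplasmic genotype differences, the ratios of nucleus to cytoplasm in WT and the correlation in CAE.

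Tymp pre-mRNA in WT nuclei was high from ZT20 to ZT4 and low at ZT8 and ZT12. In NTI the libraries held 70.6 and 66.2 CPM at ZT0, 55.3 and 74.4 at ZT4, 12.2 and 12.95 at ZT8, 10.6 and 5.95 at ZT12, 21.4 and 24.7 at ZT16, and 57.2 and 59.8 at ZT20. The fall from ZT4 to ZT8 took 1 sampling interval, and the libraries of the high times did not overlap those of the low ones. NAI had the same course at higher CPM, from a mean of 233 at ZT0 to 23.7 at ZT12. UTI went from 17.8 at ZT0 to 1.57 at ZT12, with one ZT12 library at 0.89. A 24 h curve gave a trough-to-peak range of 3.33 ± 0.35 on the log2 scale (SE, n = 12) with a peak at ZT23.5 ± 0.40 h in NTI, 3.43 ± 0.36 at ZT23.7 ± 0.40 h in NAI, and 3.56 ± 0.46 at ZT23.9 ± 0.49 h in UTI.

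Nuclear mRNA of both genes followed the same times. Tymp in NAE was at 35.1 and 47.6 CPM at ZT0, 31.0 and 33.4 at ZT4, 14.7 and 9.94 at ZT8, 5.82 and 1.87 at ZT12, 6.47 and 7.66 at ZT16, and 30.9 and 18.7 at ZT20. Sco2 in NAE was at 51.9 and 73.1 at ZT0, 55.4 and 56.1 at ZT4, 15.2 and 13.6 at ZT8, 9.71 and 4.85 at ZT12, 18.7 and 21.9 at ZT16, and 55.7 and 42.6 at ZT20. In both genes the 6 libraries of ZT20, ZT0 and ZT4 all lay above the 6 of ZT8, ZT12 and ZT16. In NTE, Tymp went from a mean of 28.7 CPM at ZT0 to 1.78 at ZT12, and Sco2 from 30.5 to 4.33. Fitted ranges of Tymp were 3.92 ± 0.52 in NTE with a peak at ZT0.33 ± 0.51 h and 3.55 ± 0.44 in NAE with a peak at ZT0.75 ± 0.47 h. Those of Sco2 were 2.85 ± 0.21 at ZT23.5 ± 0.28 h and 3.19 ± 0.36 at ZT23.8 ± 0.43 h.

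Cytoplasmic and whole-liver mRNA peaked in the day instead. Only nuclear RNA and Tymp pre-mRNA peaked around the end of the night, and the fitted peaks of Tymp nuclear mRNA lay just after ZT0. Tymp in CAE was at 11.2 and 7.92 CPM at ZT0, 6.40 and 18.6 at ZT4, 18.2 and 19.7 at ZT8, 2.45 and 5.45 at ZT12, 0.66 and 0.70 at ZT16, and 4.16 and 2.97 at ZT20. Sco2 in CAE was at 17.5 and 34.2 at ZT0, 31.5 and 22.0 at ZT4, 29.3 and 27.5 at ZT8, 16.6 and 10.6 at ZT12, 10.1 and 10.3 at ZT16, and 16.7 and 18.1 at ZT20. At ZT8, where nuclear RNA of both genes was already low, cytoplasmic mRNA was at its highest mean, 18.9 CPM for Tymp and 28.4 for Sco2. The lowest means fell at ZT16, at 0.68 for Tymp and 10.2 for Sco2, 4 h after the lowest nuclear mean. Tymp in UTE was likewise highest at ZT8 (30.5 CPM) and lowest at ZT16 (5.18), whereas Sco2 in UTE was highest at ZT0 (34.0) and lowest at ZT12 (14.9). In CTE, Tymp ranged from 35.4 at ZT8 to 4.18 at ZT16 and Sco2 from 34.7 at ZT0 to 9.96 at ZT16.

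**Figure D2:**
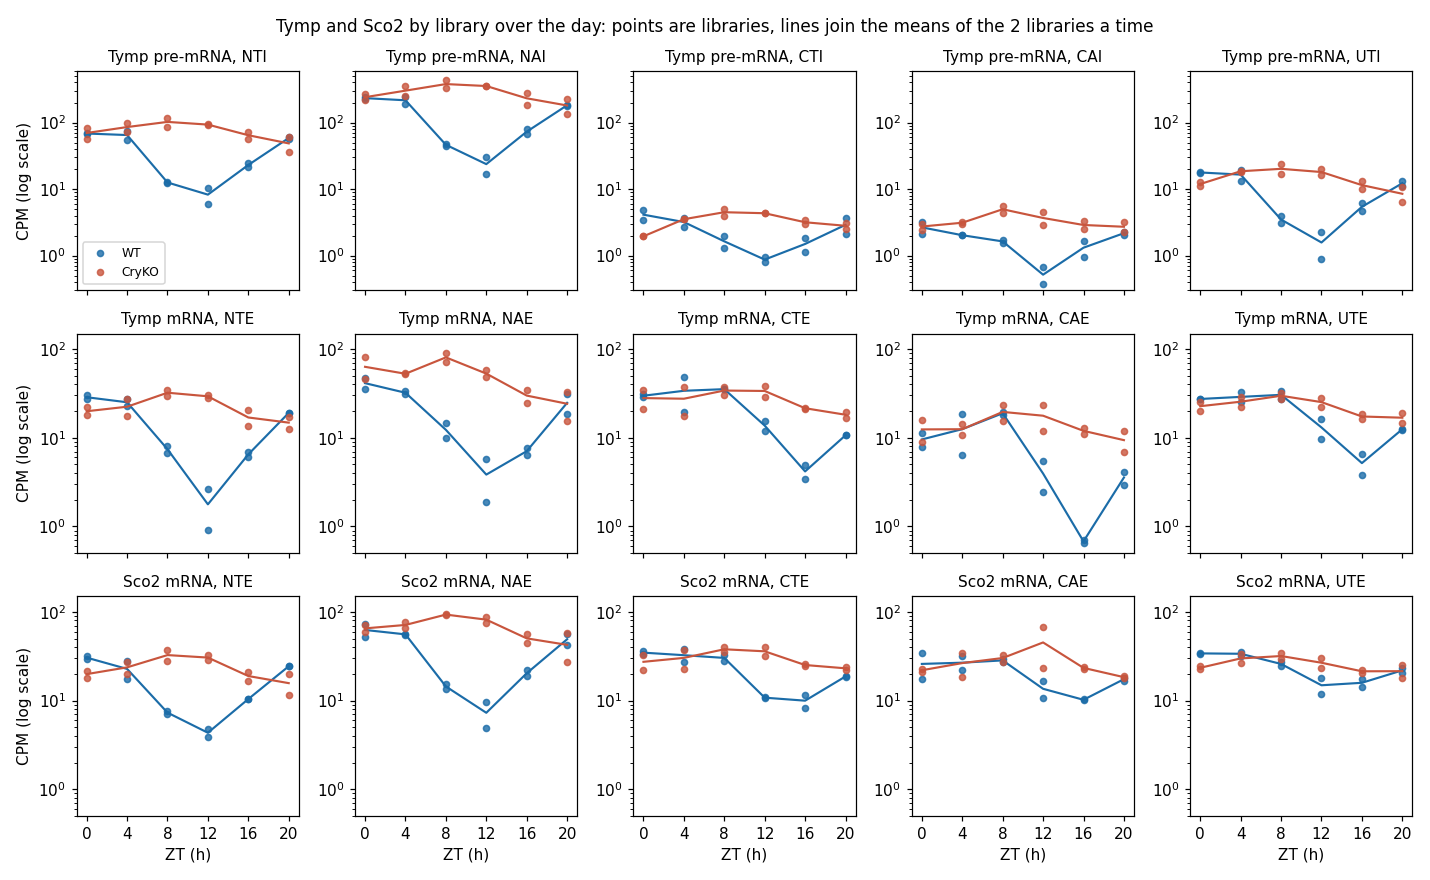
CPM on a log scale against ZT in hours for Tymp pre-mRNA (top), Tymp mRNA (middle) and Sco2 mRNA (bottom) in the 5 RNA populations, with WT in blue and CryKO in red; points are libraries and lines join the means of the 2 libraries of a time. WT nuclear RNA is lowest at ZT12 and WT Tymp in CAE is lowest at ZT16, at 0.68 CPM, while CryKO stays within a narrower band.

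The fitted peak of Tymp was at ZT4.46 ± 0.60 h in CTE, ZT4.59 ± 0.71 h in CAE and ZT4.15 ± 0.57 h in UTE, and that of Sco2 at ZT2.90 ± 0.46 h, ZT3.72 ± 0.80 h and ZT2.33 ± 0.45 h. From NAE to CAE the peak was thus 3.84 ± 0.85 h later for Tymp and 3.93 ± 0.91 h later for Sco2. From NTE to CTE it was 4.13 ± 0.78 h later for Tymp and 3.40 ± 0.54 h later for Sco2. From pre-mRNA to nuclear mRNA the peak of Tymp moved by 0.82 ± 0.65 h in total RNA and 1.02 ± 0.62 h in poly(A) RNA, within 2 SE of 0 in both. For comparison, Arntl, the gene of BMAL1, peaked at ZT22.4 ± 0.51 h in NAE and at ZT22.8 ± 0.55 h in CAE.

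The daily range of Tymp was larger than that of Sco2 in CAE and UTE. The part that the division of shared reads has in this was not tested. Tymp had a range of 3.95 ± 0.73 in CAE, 2.90 ± 0.45 in CTE and 2.48 ± 0.37 in UTE, and Sco2 had 1.45 ± 0.30, 2.01 ± 0.24 and 1.34 ± 0.16. In CAE the range of Tymp was larger by 2.50 ± 0.79 than that of Sco2, and in UTE by 1.136 ± 0.405. In CTE it was larger by 0.89 ± 0.51 and in NTE by 1.07 ± 0.56, both within 2 SE of 0. In NAE it was larger by 0.36 ± 0.57, less than its SE. The range in CAE minus that in NAE was -1.74 ± 0.47 for Sco2 and 0.40 ± 0.85 for Tymp. These are descriptions of the rhythm on which the genes were selected, and the values in CAE at ZT16 rest on a Tymp level under 1 CPM. Without WT ZT0 replicate 2 the CAE peak was at ZT4.56 ± 0.82 h for Tymp and ZT4.21 ± 0.87 h for Sco2, and the ranges were 3.96 ± 0.79 and 1.34 ± 0.29. In CTE the peaks were then at ZT4.65 ± 0.69 h and ZT2.89 ± 0.51 h, and the ranges were 2.84 ± 0.47 and 2.01 ± 0.27.

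**Figure D3:**
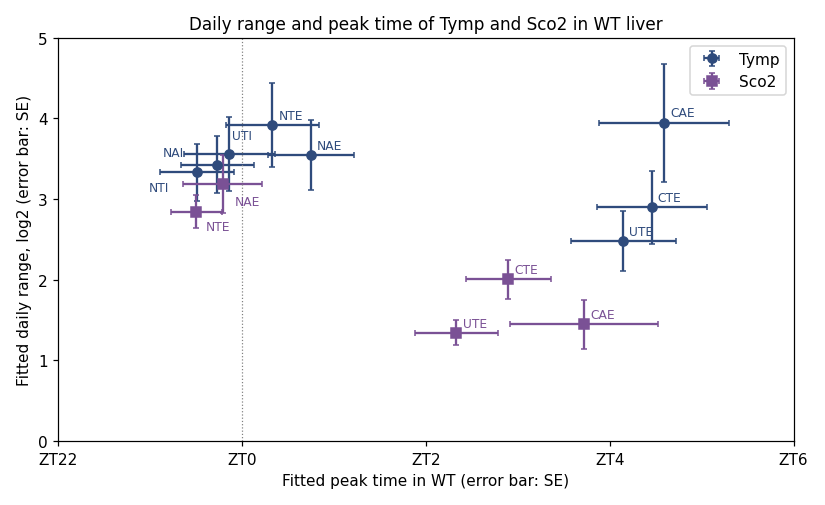
Fitted daily range on the log2 scale against fitted peak time in WT for each measure of Tymp (circles) and Sco2 (squares), with bars for the SE. Nuclear RNA and UTI peak within 1 h of ZT0, and CTE, CAE and UTE peak between ZT2 and ZT5.

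Between the genes, levels were compared per kilobase of transcript. Sco2 mRNA was estimated above Tymp mRNA in 12 of 12 WT and 12 of 12 CryKO libraries of every population. These levels rest on how reads from the 851 shared bases were divided, which was not tested. They also rest on the annotated end of Tymp-201, while the RefSeq models of the genes end 1 base apart. The median ratio in WT was 2.10 in NTE, 3.08 in NAE, 2.08 in CTE, 7.42 in CAE and 2.21 in UTE. In CryKO it was 1.81, 2.67, 1.97, 3.29 and 2.02. In WT CAE the ratio moved over the day, from 2.67 at ZT8 to 26.7 at ZT16, when Tymp was at its lowest. In WT NAE it moved from 2.09 at ZT8 to 5.11 at ZT16.

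In CryKO liver the day was flatter. The highest mean fell at ZT8 in every measure described here except Sco2 in CAE, where it fell at ZT12, at 45.2 CPM, with 23.03 and 67.4 in its 2 libraries. Tymp in NTI held 82.6 and 56.7 CPM at ZT0, 72.8 and 98.3 at ZT4, 86.1 and 118.4 at ZT8, 91.3 and 94.99 at ZT12, 73.3 and 55.7 at ZT16, and 60.9 and 36.3 at ZT20. Its level at ZT12, the lowest time in WT, was among the highest in CryKO. Sco2 in NAE went from a mean of 93.2 at ZT8 to 42.5 at ZT20. Fitted ranges over the 8 measures of Tymp and 5 of Sco2 lay between 0.63 and 1.55, all below the WT range of the same measure, with peaks between ZT6.5 and ZT9.9. The smallest was Sco2 in UTE at 0.63 ± 0.14, with 18.03 to 34.3 CPM over its 12 libraries.

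Set against WT by time, CryKO was higher mainly at the times when WT was low. The ratio of the means of Tymp in NTI was 1.02 at ZT0, 1.32 at ZT4, 8.14 at ZT8, 11.3 at ZT12, 2.80 at ZT16 and 0.83 at ZT20. In CAE it was 1.30, 0.999, 1.03, 4.49, 17.6 and 2.64, so that the largest ratio came 4 h later than in the nucleus. The ratios of Sco2 were 1.04, 1.28, 6.46, 11.2, 2.47 and 0.86 in NAE, and 0.85, 0.99, 1.06, 3.33, 2.29 and 1.05 in CAE. At ZT12 both CryKO libraries lay above both WT libraries for Tymp and for Sco2 in NAE and CAE. The share of all genes that separate in this way was not counted. ZT12 was also the lowest nuclear time in WT of genes chosen for their WT rhythm. With 2 livers a time, no single time was tested.

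Averaged over the day, Tymp was higher in CryKO in NTI, NAI, NAE, CTE and CAE, and Sco2 in NAE and CTE. Tests were edgeR's quasi-likelihood test with time as a factor, Benjamini-Hochberg adjusted over all genes of the measure, and a call is an adjusted p under 0.05. For Tymp pre-mRNA the log2 difference was 1.31 ± 0.37 in NTI (SE, adjusted p = 0.00627), where 52.5% of the genes tested were called, and 1.46 ± 0.39 in NAI (adjusted p = 0.0273), where 5.84% were called. The NAI call was lost in 3 of 24 cases when single mice were left out, without WT ZT8 replicate 1 (adjusted p = 0.0647), WT ZT8 replicate 2 (0.0551) or WT ZT12 replicate 1 (0.054). The median of all genes was itself at 0.34 in NTI, so relative to it Tymp was less raised, and with TMM factors taken from pre-mRNA the difference was 0.99 (adjusted p = 0.0527). In UTI, with 16.8% of genes called and a median of all genes of 0.26, Tymp was at 0.96 ± 0.39 (adjusted p = 0.0888).

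In nuclear poly(A) mRNA, where 17.1% of genes were called, both genes were higher in CryKO, Tymp by 1.61 ± 0.36 (adjusted p = 0.00436) and Sco2 by 1.23 ± 0.35 (adjusted p = 0.0200). In NTE, with 48.2% called, neither passed, at 0.96 ± 0.40 for Tymp (adjusted p = 0.0537) and 0.73 ± 0.32 for Sco2 (adjusted p = 0.0690). In the cytoplasm, Tymp was higher in CAE by 1.20 ± 0.36 (adjusted p = 0.0121) and in CTE by 0.61 ± 0.24 (adjusted p = 0.0487). Sco2 was higher in CTE by 0.52 ± 0.19 (adjusted p = 0.0294) and was at 0.46 ± 0.22 in CAE (adjusted p = 0.103). The shares of all genes called were 36% in CAE and 39.8% in CTE, so that a call there was common. Both CTE calls were lost when single mice were left out, in 16 of 24 cases for Tymp and in 4 for Sco2, and Sco2 in CAE passed without WT ZT0 replicate 2 (0.57, adjusted p = 0.0407). Without the same mouse Tymp was at 1.20 in CAE (adjusted p = 0.0176) and 0.64 in CTE (adjusted p = 0.0483), and Sco2 at 0.54 in CTE (adjusted p = 0.0314). In whole liver, where 48.8% of genes were called in UTE, Tymp was at 0.42 ± 0.19 (adjusted p = 0.0705) and Sco2 at 0.14 ± 0.12 (adjusted p = 0.374).

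**Figure D4:**
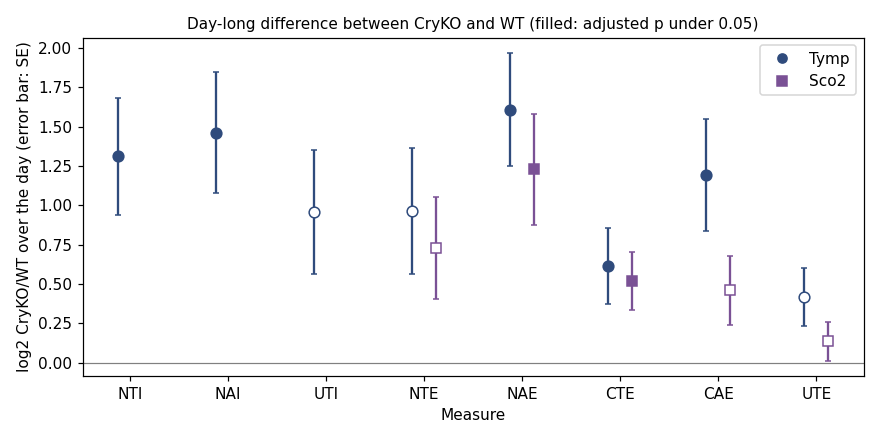
Log2 difference between CryKO and WT averaged over the 6 times for each measure of Tymp (circles) and Sco2 (squares), with bars for the SE and filled symbols for an adjusted p under 0.05. All estimates are above 0, from 0.14 for Sco2 in UTE to 1.61 for Tymp in NAE.

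Because reads of the shared exons were divided between the genes, their mRNA counts were also added into 1 feature, a choice made after seeing the data. The sum was higher in CryKO in NAE by 1.37 (adjusted p = 0.0104), in CTE by 0.55 (adjusted p = 0.0327) and in CAE by 0.64 (adjusted p = 0.0237). It was at 0.84 in NTE (adjusted p = 0.0551) and 0.24 in UTE (adjusted p = 0.150). In WT CAE the sum varied less between the livers of a time than either gene, with a replicate SD of 0.18 on the log2 scale against 0.59 for Tymp and 0.37 for Sco2. In the other WT populations the SD of the sum lay between those of the genes. The fitted WT range of the sum was 1.96 ± 0.27 in CAE with a peak at ZT4.20 ± 0.52 h, and 3.27 ± 0.37 in NAE with a peak at ZT0.16 ± 0.43 h.

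The nucleus and the cytoplasm of the same liver were compared next, as the question of where each mRNA is held. Genes were called at an adjusted p under 0.01 and an absolute log2 difference over 2, and neither member passed in any of these comparisons. Tymp in NAE over CAE was at 1.13 ± 0.51 in WT (adjusted p = 0.0410), where 29.5% of genes were called, and at 1.61 ± 0.24 in CryKO (adjusted p = 4.98e-07), where 28% were. Sco2 was at 0.59 ± 0.35 (adjusted p = 0.112) and 1.04 ± 0.20 (adjusted p = 3.44e-05). In a fit blocked on the replicate number, which pairs the fractions of a WT mouse, Tymp in WT was at 1.29 (adjusted p = 0.00878) and Sco2 at 0.34 (adjusted p = 0.262). In total RNA, NTE over CTE, Tymp was at 1.04 ± 0.45 in WT (adjusted p = 0.0368; 23.6% of genes called) and 1.17 ± 0.18 in CryKO (adjusted p = 9.69e-07; 23.8% called). Sco2 was at 1.10 ± 0.34 (adjusted p = 0.00412) and 1.10 ± 0.16 (adjusted p = 3.9e-07). Without WT ZT0 replicate 2, NAE over CAE in WT was at 0.93 for Tymp (adjusted p = 0.106) and 0.53 for Sco2 (adjusted p = 0.155), and NTE over CTE at 0.98 (adjusted p = 0.0632) and 1.05 (adjusted p = 0.00864). These ratios are relative to the mRNA counts of each fraction, scaled by TMM, and are not molecules per cell.

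Within WT the ratio swung with the time of day. For Tymp, the log2 ratio of NAE to CAE was 3.06 and 3.18 in the livers of ZT16 and -0.49 and -1.11 in those of ZT8. It was above 0 in 9 of 12 WT livers and in 12 of 12 CryKO livers. For Sco2 it was 1.56 and 1.07 at ZT20 and -0.99 and -1.30 at ZT12, and above 0 in 8 of 12 WT and 12 of 12 CryKO livers. CryKO fractions were paired by replicate number, and that a number marks a single liver was assumed. A Tymp ratio of 8.71-fold toward the nucleus at ZT16 and of 1.75-fold toward the cytoplasm at ZT8 thus averaged to the modest value of the day. The genotype difference of the ratio was 0.51 ± 0.57 for Tymp (adjusted p = 0.637) and 0.48 ± 0.41 for Sco2 (adjusted p = 0.524), with 7.66% of genes called, 901 genes, and 1619 genes with the replicate block. Neither gene was called under either fit.

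Total and poly(A) RNA of the nucleus were compared through Tymp pre-mRNA. NTI over NAI was at -0.32 ± 0.46 in WT (adjusted p = 0.505), where 50.6% of genes were called and the median of all genes was at 2.02. In a fit blocked on the replicate number, which pairs the nuclear RNA of each mouse, it was at -0.31 (adjusted p = 2.38e-05), and Tymp was not called under either fit because the difference was under 2. This ratio is taken after scaling between the populations. On the CPM scale of each population, where the level is a share of the library, the median of Tymp in WT was 39.99 in NTI and 128.4 in NAI. The poly(A) and total libraries were made with different kits, and kit and poly(A) selection cannot be told apart.

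Livers sampled at the same time differed in both genes together in 4 of the 5 populations. The difference of replicate 2 from replicate 1 was taken at each time in each genotype, which gave 12 differences. The choice of the genes did not use these differences directly. It did take genes with a shared rhythm, and such genes can also differ together between mice of a time. The p-values below are against no correlation, and other pairs of genes with the same rhythm were not compared. Pearson's r between the genes was 0.67 in NTE (adjusted permutation p = 0.0226), 0.93 in NAE (5e-05), 0.87 in CTE (0.00035), -0.26 in CAE (0.413) and 0.92 in UTE (0.00015), with p-values adjusted over the 5 populations. The NAE p before adjustment, 1e-05, is the smallest that the permutations can give. Spearman's rho was 0.86 (adjusted permutation p = 0.0008), 0.92 (0.000175), 0.87 (0.0008), -0.32 (0.321) and 0.94 (0.000175). Both genes moved the same way in 10, 11, 7, 6 and 12 of the 12 differences. Without the 2 differences farthest from the median of Tymp, r was 0.80, 0.88, 0.84, 0.12 and 0.91.

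In CAE, r was -0.84 over the 6 WT differences and 0.40 over the 6 CryKO differences. Without WT ZT0, the time of the mouse whose cytoplasm stood apart, r over the other 11 was -0.115 (adjusted permutation p = 0.739), and WT alone then has too few differences for a value. In WT CAE at ZT4, Tymp was at 6.40 and 18.6 CPM while Sco2 was at 31.5 and 22.0, and at ZT12 Tymp was at 2.45 and 5.45 while Sco2 was at 16.6 and 10.6. In CTE of the same ZT4 livers, Tymp was at 19.7 and 48.1 and Sco2 at 27.1 and 37.9, so there both genes were higher in replicate 2. The difference in r between populations was not tested, and neither was the part that read division has in any of these correlations, the positive ones included.

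**Figure D5:**
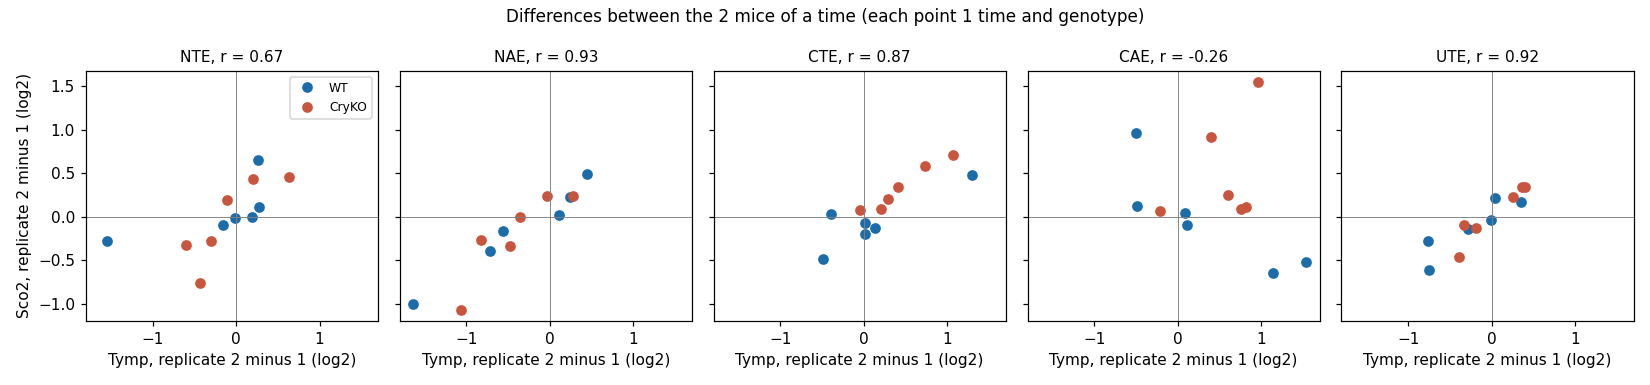
Log2 difference between replicates 2 and 1 at each time for Sco2 against Tymp, with 6 WT (blue) and 6 CryKO (red) points in each of 5 populations. Points rise together in NTE, NAE, CTE and UTE and do not in CAE, where r is -0.26.

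The surrounding genes of chromosome 15 were tested for a 24 h rhythm in WT. The rule that chose Tymp and Sco2 did not use them, but their list was made with earlier results of these data known. Some listed genes start over 100 kb away, among them Plxnb2 at 193058 bases and Rabl2 at 214884 bases. In the list of neighbours, 2 of the 13 tested in NAE, 1 of 11 in CAE and 3 of 13 in UTE were rhythmic, against 2.28%, 2.91% and 10.6% of all genes. Odf3b, an outer dense fibre gene on the same strand whose start is 2243 bases upstream of that of Tymp, had a range of 2.84 in NAE with a peak at ZT2.38 (adjusted p = 0.0438) and of 1.83 in UTE with a peak at ZT4.35 (adjusted p = 0.00186). Klhdc7b, a kelch domain gene on the other strand with its start 7878 bases from that of Tymp, had a range of 4.94 in NAE with a peak at ZT23.1 (adjusted p = 0.0227) and of 3.09 in UTE with a peak at ZT23.5 (adjusted p = 0.0330). The rhythm of Arsa, the gene of arylsulfatase A 100386 bases away, peaked later, at ZT7.54 in CAE (range 1.44, adjusted p = 0.0350) and ZT7.67 in UTE (range 1.12, adjusted p = 0.0103).

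Odf3b and Klhdc7b were low at the same times as nuclear Tymp or soon after. In WT NAE, Odf3b was at 23.4 and 13.2 CPM at ZT4 and at 3.02 and 0.98 at ZT16, and Klhdc7b at 3.11 and 3.67 at ZT0 and at 0.07 and 0.03 at ZT12. In CryKO NAE at ZT12, Odf3b was at 20.7 and 30.1 CPM and Klhdc7b at 6.54 and 5.98. Averaged over the day Odf3b was higher in CryKO in NAE by 1.45 ± 0.37 (adjusted p = 0.0107) and Klhdc7b in NTE by 1.22 ± 0.45 (adjusted p = 0.0315). The values of Klhdc7b in NAE rest on few CPM, and in CAE it was at or near 0 in all libraries, up to 0.16 CPM.

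Ncaph2, a condensin subunit gene that runs antisense through the end of Tymp and Sco2, was not called rhythmic. It was at 33.3 to 46.4 CPM over the 12 WT libraries of NAE, with a fitted range of 0.05 (adjusted p = 0.970). In NAE its genotype difference was -0.10 ± 0.07 (adjusted p = 0.373). The libraries were stranded and were counted with strand. In NAE 3 of 13 neighbours were higher in CryKO, where 17.1% of all genes were called. Besides Odf3b they were Cpt1b, the muscle form of the enzyme that passes fatty acids to mitochondria, and Rabl2, a small GTPase, by 0.58 ± 0.14 (adjusted p = 0.00804) and 0.27 ± 0.08 (adjusted p = 0.0184). In UTE, 6 of 13 neighbours were lower in CryKO, a share near the 48.8% of all genes called there, among them Arsa by -0.66 ± 0.15 (adjusted p = 0.0012) and the lipase maturation factor Lmf2 by -0.32 ± 0.07 (adjusted p = 0.00104), and none was higher, also at an unadjusted p under 0.05.

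The metabolism that Tymp belongs to was described through 28 tested genes of pyrimidine nucleoside salvage and breakdown. Of these, 1 was rhythmic in WT in NAE, 2 in CAE and 5 in UTE, against 2.28%, 2.91% and 10.6% of all genes. Upp2, a uridine phosphorylase, had ranges of 3.61 in NAE and 2.76 in UTE with peaks at ZT10.8 (adjusted p = 0.00253) and ZT11.5 (adjusted p = 0.00072), about when nuclear Tymp was lowest. Pnp, the purine nucleoside phosphorylase, peaked at ZT23.8 in CAE with a range of 1.59 (adjusted p = 0.0172). In CryKO, 4 of these genes were higher and 4 lower in NAE, with a median log2 difference of 0.04 (all genes: 0.001), and 4 were higher and 8 lower in CAE. The shares of all genes called were 17.1% in NAE and 36% in CAE. Slc29a1, a nucleoside transporter, was higher in CAE by 0.67 ± 0.13 (adjusted p = 0.000448), as was Dpys, which acts in the breakdown of thymine and uracil, by 0.74 ± 0.12 (adjusted p = 7.39e-05). Pnp was lower in CAE by -0.67 ± 0.16 (adjusted p = 0.0032) and Nt5e, a 5′-nucleotidase, by -1.22 ± 0.18 (adjusted p = 3.8e-05).

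Of 18 genes of mitochondrial DNA maintenance, none was rhythmic in NAE or CAE by edgeR's test (unadjusted p under 0.05 in 2 and 2). The shares of all genes were 2.28% and 2.91%, so few or none would be called in a list of this size. In UTE 3 were rhythmic, where 10.6% of all genes were. The 3 included Tk2, the thymidine kinase of mitochondria, with a range of 0.46 and a peak at ZT7.78 (adjusted p = 0.0475). In CryKO, 2 were higher in NAE, where 17.1% of all genes were called, and 5 higher and 2 lower in CAE, where 36% were. Polg, the mitochondrial DNA polymerase, was higher in both, by 0.22 ± 0.07 in NAE (adjusted p = 0.0465) and 0.53 ± 0.11 in CAE (adjusted p = 0.000877), and Tfam, which packages mitochondrial DNA, was lower in CAE by -0.34 ± 0.09 (adjusted p = 0.00384).

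The enzyme that Sco2 serves was described through its assembly factors and its subunits. Of the 24 tested genes of cytochrome c oxidase assembly, none was rhythmic in NAE or CAE by edgeR's test (unadjusted p under 0.05 in 2 and 3) and 3 were in UTE. The shares of all genes were 2.28%, 2.91% and 10.6%, so in NAE and CAE few or none would be called in a list of this size. The 3 in UTE were Fdxr, a ferredoxin reductase of mitochondria, with a range of 0.52 (adjusted p = 0.0226), Lrpprc, a mitochondrial RNA-binding protein, with 0.45 (adjusted p = 0.0358), and Oxa1l with 0.33 (adjusted p = 0.0382). By the same test none of the 13 cytochrome c oxidase subunits was rhythmic in CAE or UTE (unadjusted p under 0.05 in 0 and 2), against 2.91% and 10.6% of all genes. In WT, all 13 subunits were called lower in the nucleus, NAE over CAE, with a median log2 ratio of -3.99 (all genes: 0.16), among them Cox7a2l at -4.01 ± 0.14 (adjusted p = 1.21e-19), and so were 12 of 24 assembly genes, with a median of -2.02. In the same comparison 29.5% of all genes were called in either direction. The assembly gene called higher in the nucleus was Fdxr, at 2.60 ± 0.15 (adjusted p = 2.4e-15), and Sco2, given above, was not called. In CryKO, 7 of 12 subunits were lower in NAE and 10 of 13 in CAE, with medians of -0.34 and -0.71, and none was higher, also at an unadjusted p under 0.05. The shares of all genes called were 17.1% and 36%. The direction was not shared by every population: 3 of 13 subunits were lower in UTE, with a median of -0.02, and in NTI 11 of 12 were higher, with a median of 0.39 (all genes: 0.34; 52.5% called). Cox7a2 was lower by -0.96 ± 0.15 in CAE (adjusted p = 7.12e-05). Of the assembly genes, 4 were higher and 12 lower in CAE. Cox15, which makes the heme of the oxidase, was higher by 0.61 ± 0.09 (adjusted p = 4.47e-05) and Pet100 lower by -1.49 ± 0.21 (adjusted p = 3.07e-05).

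The genes most like each member were ranked by Pearson's r of the 12 time-and-genotype means of log2 CPM in UTE, among 8734 genes. For Tymp they were Slc49a4, a lysosomal transporter (r = 0.917), Pttg1ip (0.912), Hal, the histidine ammonia lyase of liver (0.904), Cisd1, an iron-sulfur protein of the outer mitochondrial membrane (0.902), and Top1mt, the mitochondrial topoisomerase (0.901). For Sco2 they were Ankrd50 (0.899), Gpatch2l (0.895), Slc49a4 (0.863), Hal (0.858) and Aasdh (0.851). Slc49a4 and Hal were thus on both lists. Sco2 ranked 27 for Tymp and Tymp 9 for Sco2, at r = 0.836. The means share libraries and depth across genes, and a high r over 12 means is a description only.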

How the data were processed

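The authors pseudo-aligned single reads of 65 nt with kallisto 0.46.0 to a joint index of pre-mRNA and mRNA of GRCm38 transcripts and rat transcripts, with strand, and removed isoforms of low expression. The deposited values are estimated counts per transcript, summed per gene, without normalization. The build names are those of the submitters' processing notes. Rows that repeated a symbol with the same values were merged. Each member had 1 transcript, so isoform shares could not be formed. Estimated counts were rounded to whole numbers and tested where 10 counts were reached in 50% of the libraries, with edgeR 4.0.16 in R 4.3.3 (quasi-likelihood, TMM on mRNA, Benjamini-Hochberg). Descriptions used log2 CPM with 0.5 counts added, and correlations 100000 permutations, 2-sided. Tests were tested on simulated data, with genes changed by a log2 of 1. In CryKO against WT 86.9% of them were recovered for NTI, with 8.42% of calls on unchanged genes, and 94% for UTE (4.48%). For the NAE/CAE ratio between genotypes it was 69.7% (4.55%), for NAE/CAE in WT 89.9% (3.09%) and for the rhythm in UTE 67.3% (5.2%). Recovery was counted at an adjusted p under 0.05, so the 89.9% did not use the 0.01 set for calls between nucleus and cytoplasm. It did not use their log2 limit of 2 either, since the median estimate was 0.968. Recovery at these limits was not tested. Apart from the change set, a simulated gene had the same mean level at all times, with no daily rhythm. Recovery in the genotype and compartment tests of genes with a rhythm like that of Tymp and Sco2 was therefore not tested.

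The members and lists were chosen with earlier results of these data known. Named genes are the members, clock references, Cry1 and Cry2, the neighbours, up to 4 genes per direction of each list with the lowest adjusted p, and the 5 most like genes. WT libraries with the same number came from the same mouse by the study's methods. Their deviations correlated over 0.1 at 6 of 6 times between NA and CA. Between NT and CT they did so at 5 of 6 times, with r = 0.002 at ZT0. Between WT and CryKO it was 2 of 30 cases. In CryKO it was 5 of 6 times for NA and CA and for NT and CT, with r of -0.15 and -0.12 at ZT0. That CryKO numbers mark single mice was assumed. Numbers were not a block in the tests, as in the study's methods. Alternatives were DESeq2 1.42.0, other filters and TMM factors, a 24 h curve in place of time, the replicate block and leaving out each mouse.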

Additional observations from a re-analysis of the deposited data

Results flagged for a closer look

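Tymp pre-mRNA was also present in the cytoplasmic libraries, which the comparisons above do not use. A count of 0 allows up to 3 counts in a library, and the median level was above that: 2.04 CPM in CTI of WT, 3.44 in CTI of CryKO, 1.86 in CAI of WT and 3.10 in CAI of CryKO. In WT it was highest at ZT0 and lowest at ZT12, from 4.12 to 0.87 CPM in CTI and from 2.66 to 0.52 in CAI, the same times as in NTI. The part of nuclear RNA carried into the cytoplasmic fraction was not tested.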

How the results depend on the processing

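None of the 72 results changed sign in the alternatives counted here. Leaving out the 2 differences farthest from the median of Tymp is not among them. It moved the correlation in CAE from -0.26 to 0.12. Of 307 alternative values other than leaving out a mouse, 290 kept their side of the threshold or stayed within the limits of change, and of 1025 values leaving out a mouse 72 changed. With the replicate block, whose number pairs no WT mouse with a CryKO mouse, Tymp was at 1.45 in NAI (adjusted p = 0.0806) and 0.61 in CTE (0.0711), and Sco2 at 1.22 in NAE (0.0575) and 0.51 in CTE (0.0659), all no longer called; genes called were 800 in UTI, 1619 for the NAE/CAE ratio between genotypes, and 210 for the rhythm in CAE. With TMM factors from pre-mRNA, Tymp in NTI was at 0.99 and was not called, and 3492 genes were called in NTI and 1071 in NAI. With DESeq2, Tymp was called in NTE (0.98), UTI (0.97) and UTE (0.42) and Sco2 in NTE (0.74), and 1036 genes in NAI. With the 24 h curve, Tymp (0.98) and Sco2 (0.74) were called in NTE. The cause of these changes was not tested. Without each mouse in turn, the genotype difference of Tymp lay between 0.70 and 1.11 in NTE, 1.24 and 1.62 in NAI, 0.48 and 0.76 in CTE, 0.73 and 1.12 in UTI and 0.30 and 0.48 in UTE. That of Sco2 lay between 0.54 and 0.88 in NTE, 0.43 and 0.61 in CTE and 0.28 and 0.57 in CAE. Genes called lay between 457 and 973 in NAI and 862 and 4852 in UTI, the highest in NAI without CryKO ZT16 replicate 2 and the UTI extremes without CryKO ZT20 replicates 2 and 1, and rhythmic genes between 115 and 359 in NAE, 98 and 520 in CAE and 704 and 1583 in UTE. WT daily ranges of Tymp lay between 3.25 and 4.15 in NTE, 3.08 and 3.62 in NAI, 2.55 and 3.42 in CTE, 3.53 and 4.66 in CAE, 3.06 and 3.74 in UTI and 2.10 and 2.75 in UTE, and those of Sco2 between 2.81 and 3.46 in NAE and 1.87 and 2.24 in CTE. With the block the WT ratios of nucleus to cytoplasm stayed under the log2 limit of 2 for both genes, and count as unchanged for that reason. The adjusted p of Tymp in NAE over CAE moved from 0.0410 to 0.00878 in edgeR's test. With 2 mice a time, small rhythms and single times were not resolved. The p-values of edgeR's tests measure the spread left by each fit, which is not only that between mice. In the genotype tests it includes genotype differences that changed with time. In the unblocked tests between populations it includes the change over the day, since those fits had no term for time.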
